A study of Mus musculus with 6 samples.

Results

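Primary mouse osteoblasts that had been kept for 30 days in differentiation medium with cabozantinib were compared with undifferentiated osteoblasts, over all genes of a single-colour Agilent mouse array. The comparison used 4 of the 6 arrays of the study, 2 of cells differentiated with the drug and 2 of undifferentiated cells, and they were chosen by their labels alone. The remaining 2 arrays, of cells differentiated for 30 days without the drug, were used to show where the cultures with the drug differed. The cells came from the calvaria, the flat bones of the skull, of newborn CD1 mice 2 to 5 days old, and no group carried a genetic change in the labels. Undifferentiated osteoblasts were grown to confluence in growth medium. Differentiated osteoblasts were then held in medium with ascorbic acid and β-glycerol phosphate, and cabozantinib was given at 100 nM in the drug group. Time in culture, medium and drug therefore all differed between the groups compared. The labels do not say whether cells of several animals were pooled or whether the arrays of a group came from separate cultures, so that the p-values measure the spread between these arrays and may be technical. The RNA was taken from whole cultures, in which fewer cells of a type and less RNA per cell cannot be told apart.

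Osteoblasts lay down a collagen matrix, and as they mature they add proteins that bind calcium and control the growth of mineral, some of them becoming osteocytes. Ascorbic acid allows collagen to be hydroxylated and secreted, and β-glycerol phosphate supplies phosphate for the mineral. Cells released from calvaria by collagenase also include bone marrow and connective tissue cells, among them macrophages. Cabozantinib inhibits MET, VEGFR2 and several other receptor tyrosine kinases.

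Each array held 43020 spots for 39429 probes, and the scanner software called between 58.8% and 72.9% of the spots well above background, with the 2 cabozantinib arrays the lowest. Levels are given here as log2 signals relative to the 75th percentile of the same array, so that 0 marks that percentile and a difference of 1 is a doubling. The spread between replicates, as the SD of their differences over probes, was 0.87 on this scale for undifferentiated cells and 0.64 for cabozantinib. The cabozantinib arrays lay on a different slide from the other 4 arrays, so that slide and drug cannot be told apart in any comparison with them, and the positions on the slide were the same as those of the undifferentiated arrays. In limma with Benjamini-Hochberg adjustment, 1563 of 23084 genes (6.77%) were higher and 4008 (17.4%) were lower with cabozantinib at an adjusted p under 0.05. The lower genes were largely dim ones. Among the dimmest 7695 genes the median log2 change was -1.15 and 34.5% were called lower, against a median of 0.05 and 3.46% among the brightest 7696. Of the 4008 lower genes, 45.7% were not well above background on either cabozantinib array. After quantile normalization, which gives all arrays the same distribution, 1871 genes were higher and 1547 were lower, so that 54.7% of the calls were higher against 28.1% with the percentile. Subtracting the median of each array gave 4012 higher and 1599 lower genes, 71.5% of them higher. The median change over all genes was -0.35 with the percentile and -0.12 after quantile normalization.

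**Figure D1:**
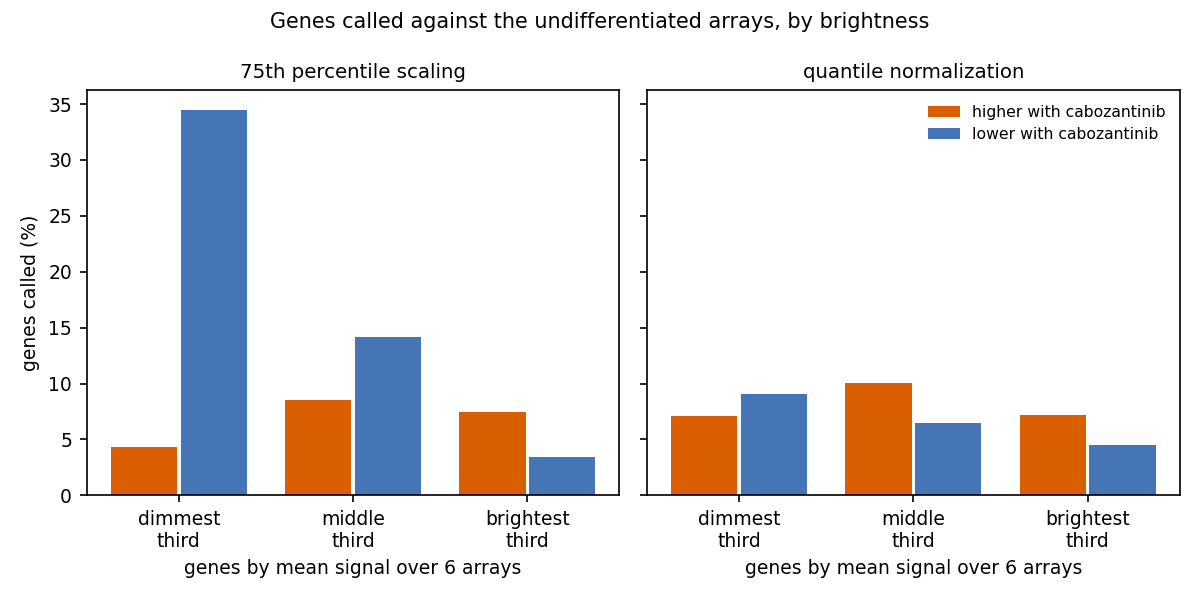
Genes called at an adjusted p under 0.05 between the 2 cabozantinib arrays and the 2 undifferentiated arrays, as a percentage of the genes in 3 equal groups by mean signal over 6 arrays, with 75th percentile scaling (left) and quantile normalization (right). Bars in orange are genes higher with cabozantinib and bars in blue are genes lower, and the blue bar of the dimmest genes goes from 34.5% on the left to 9.08% on the right.

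For this reason a gene is said to have risen or fallen only where it was called in the same direction with both scalings, a rule that was chosen after the data had been seen. It left 1465 genes (6.35%) that rose and 1426 (6.18%) that fell. The counts of list members that rose or fell are to be read against these shares. Each gene is read at its brightest tested probe. Among the genes described here, other probes of C3 (0.95), Lpl (2.01), Chrdl1 and Rorb, and 1 of the 3 others of Igf1 (1.04), moved the same way and were not called. Of the genes that rose, 1203 were also called higher in cells differentiated without the drug, and 0 were called lower there. Of the genes that fell, 583 were also called lower without the drug and 2 were called higher, Mctp2 and the transcript 1700069L16Rik. Against undifferentiated cells, differentiation without the drug gave 7.17% of genes higher and 6.25% lower. These comparisons share the undifferentiated arrays, and their values are given side by side. Differences between cells with and without the drug were tested in the same fit, where 0.81% of genes were called higher and 12% lower with the drug.

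Noncollagenous bone matrix proteins were among the genes that rose. Of the 16 tested genes of the list of SIBLING and other bone matrix proteins, 10 were called higher and 1 lower, 8 rose with both scalings, and the median log2 change was 1.93. SIBLING proteins are acidic phosphoproteins that bind calcium, and the genes of 4 of them, Dmp1, Ibsp, Mepe and Spp1, lie side by side on chromosome 5 between positions 104197575 and 104441053 of GRCm38.p6. The signal of Ibsp, bone sialoprotein, was 2.95 and 2.46 on the undifferentiated arrays, 4.74 and 5.09 after differentiation without the drug, and 6.25 and 6.58 with it. The 3 groups did not overlap. Ibsp rose by 3.71 ± 0.37 (SE) with cabozantinib (13.1-fold, adjusted p = 0.00189 in limma). Its difference between cells with and without the drug was 1.50 (adjusted p = 0.0415, 0.0514 after quantile normalization). Mepe, a regulator of mineral deposition, read -2.67 and -3.53 on the undifferentiated arrays, -0.73 and -0.60 without the drug and 0.34 and 0.42 with it, a rise of 3.48 ± 0.39 (adjusted p = 0.00289). Dmp1, dentin matrix protein 1, which is abundant in osteocytes, rose by 3.48 ± 0.50 (adjusted p = 0.00589). Spp1, osteopontin, went the other way without passing the test, with signals of 3.64 and 5.31 in undifferentiated cells and 2.71 and -0.46 with the drug (adjusted p = 0.0501). The 2 cabozantinib arrays lay far apart for Spp1, and the groups did not overlap.

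The promoters of Dmp1 and Mepe are shown because both genes rose and both windows hold TGTGGT, a core of the site bound by RUNX2, the transcription factor needed for osteoblast formation. Each sequence is the 250 bases before a transcript start in RefSeq (GRCm38.p6), read 5′ to 3′ on the strand of the gene, with the motif on either strand in capitals. Dmp1 has 2 starts in the table, and the window shown belongs to the inner one, which lies inside the gene, while the window of the outer start does not hold these letters.
Dmp1, chr5:104202367-104202616, plus strand: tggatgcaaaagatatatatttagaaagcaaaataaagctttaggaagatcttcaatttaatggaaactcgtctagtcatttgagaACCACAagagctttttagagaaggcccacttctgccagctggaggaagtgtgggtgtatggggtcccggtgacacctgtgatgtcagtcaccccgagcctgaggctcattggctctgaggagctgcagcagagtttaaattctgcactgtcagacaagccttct
Mepe, chr5:104325079-104325328, plus strand: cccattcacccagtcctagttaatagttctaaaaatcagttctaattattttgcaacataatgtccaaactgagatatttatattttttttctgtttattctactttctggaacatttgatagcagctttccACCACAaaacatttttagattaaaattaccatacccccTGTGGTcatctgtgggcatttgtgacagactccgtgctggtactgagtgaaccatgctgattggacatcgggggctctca
The motif lay 164 bases before the inner start of Dmp1, and 118 and 80 bases before that of Mepe. Among the 14 genes of the list with a promoter in the table, 5 held it in a window of any of their starts (35.7%), against 15.9% of all 27025 genes. Besides Dmp1 and Mepe the holders were Ogn, which rose, Spp1, which was not called, and Bglap, which was not tested. No other gene of the list that rose was among the holders, and the share describes the list whether or not its members were called. The match of letters is a description and no sign of binding.

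Osteocalcin, the calcium-binding Gla protein of bone, was measured through Bglap2, whose probe may also bind the near-identical Bglap and Bglap3. Its signal was -0.08 and -0.32 in undifferentiated cells, 5.13 and 4.59 without the drug, and 4.64 and 4.94 with it. It rose by 4.99 ± 0.36 (31.7-fold, adjusted p = 0.000735), and the difference between cells with and without the drug was -0.08 (adjusted p = 0.938). Mgp, matrix Gla protein, an inhibitor of calcification, rose by 2.16 ± 0.33 (4.47-fold, adjusted p = 0.00738). The small proteoglycans osteomodulin (Omd) and osteoglycin (Ogn) rose by 3.40 and 2.16, and periostin (Postn) by 1.70. Mgp and Ogn without cabozantinib replicate 2, and Postn without either cabozantinib array, were no longer called, at changes between 1.61 and 2.10. With percentile scaling only, decorin (Dcn) and Aspn were called higher and biglycan (Bgn) was called lower, at -1.63.

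Genes of mineralization rose in part. Of 13 tested genes of phosphate handling and mineralization, 4 were called higher and 0 lower, with a median change of 0.51, and all 4 rose with both scalings. Phex, a membrane endopeptidase whose loss causes hypophosphatemic rickets, had signals of -3.96 and -3.27 in undifferentiated cells, 2.95 and 2.58 without the drug and 1.52 and 1.62 with it. The cells with the drug lay between the other groups. Phex rose by 5.18 ± 0.38 (36.4-fold, adjusted p = 0.000746). Smpd3, a sphingomyelinase needed for bone mineralization, rose by 3.35 ± 0.45 (adjusted p = 0.0049). Ahsg, fetuin-A, a mineral-binding serum protein, was not well above background on either undifferentiated array, was at least 5.13-fold higher with the drug, and was lower than in cells without the drug by 3.65 (adjusted p = 0.0231, 0.0514 after quantile normalization). Fam20c, the kinase that phosphorylates SIBLING proteins, rose by 1.22 (adjusted p = 0.049) and was not called without any array in turn, at changes between 1.12 and 1.32. Alkaline phosphatase (Alpl), which frees phosphate for mineral, read 3.87 and 3.23 in undifferentiated cells and 4.09 and 4.38 with the drug. The difference for Alpl was 0.68 ± 0.37 and did not pass the test (adjusted p = 0.217). Of 11 tested genes of the osteocyte list, 4 rose and 0 fell. They were Dmp1, Mepe and Phex, which are already counted in the bone matrix and mineralization lists, and Dkk1, which is also counted in the Wnt list. Dkk1, a secreted inhibitor of Wnt signaling, rose by 4.38 ± 0.38 (adjusted p = 0.00129).

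Of 21 tested collagens, 10 were called higher and 0 lower, 9 rose with both scalings, and the median change was 1.17. Col1a1, the chief collagen of bone, was already bright in undifferentiated cells at 8.23 and 6.73, and read 7.35 and 7.64 with the drug. The groups overlapped, the difference was 0.02 ± 0.54 (adjusted p = 0.987), and its sign turned after quantile normalization. The collagens that rose most were minor ones of fibril surfaces and of bone. Col14a1, which coats collagen fibrils, had signals of -1.05 and -1.08 in undifferentiated cells and 3.69 and 3.61 with the drug, a rise of 4.72 ± 0.32 (26.3-fold, adjusted p = 0.000707). A dimmer probe of Col14a1 was called in the other direction at -1.43 (adjusted p = 0.0464). Col24a1, a fibrillar collagen expressed in bone, rose by 3.67, and Col22a1 by 3.51. Of 20 genes of collagen processing and crosslinking, 0 rose and 2 fell, Plod3, a lysyl hydroxylase, by 2.25 and Pcolce2, an enhancer of procollagen cleavage, by 1.50, the second not called without either cabozantinib array (-1.42 and -1.59). The other 18 genes were not called. Of 23 matrix proteases and inhibitors, 3 rose and 4 fell with both scalings, with a median of -0.80. Adamts8, a secreted metalloproteinase, rose by 5.01 ± 0.44 at its brightest probe (32.3-fold, adjusted p = 0.0013) and read -0.17 at a dimmer one. Timp3, an inhibitor of these enzymes bound to matrix, fell by 2.65 ± 0.36 and was lower than in cells without the drug by 1.57 (adjusted p = 0.0365, 0.0729 after quantile normalization).

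**Figure D2:**
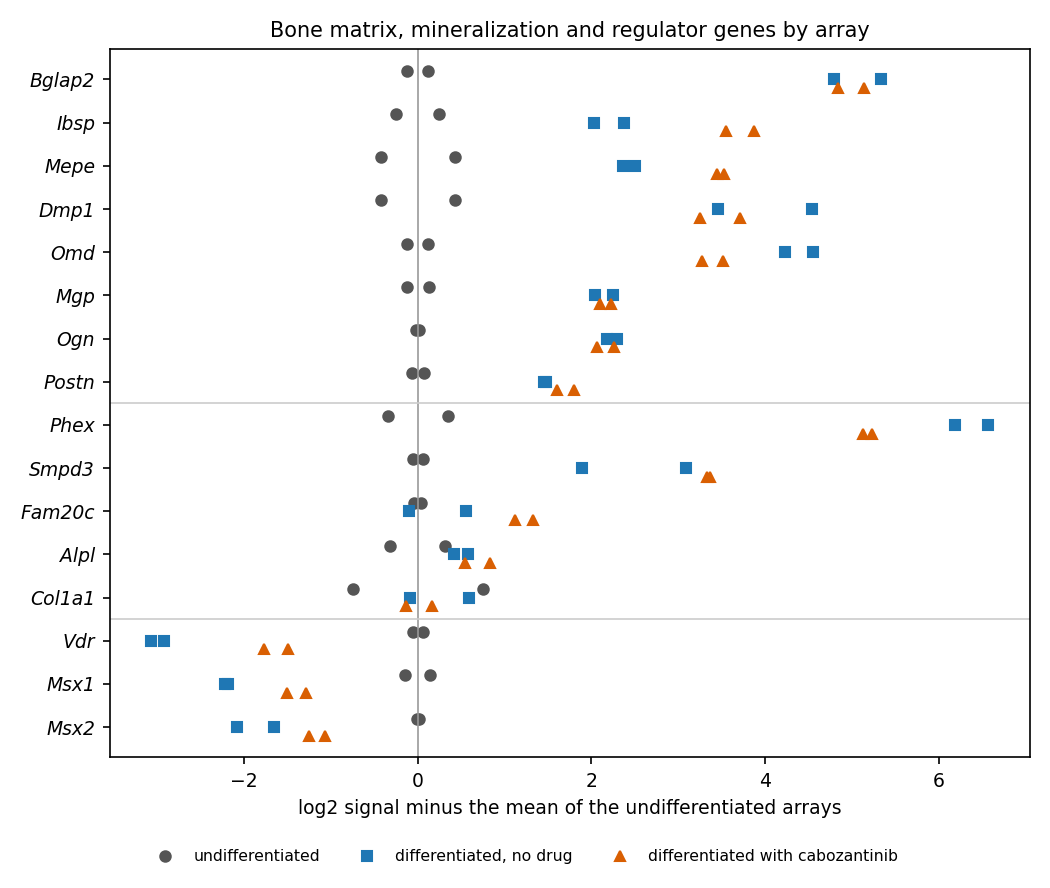
Log2 signal of each array minus the mean of the 2 undifferentiated arrays (x axis) for bone matrix, mineralization and regulator genes, with circles for undifferentiated cells, squares for cells differentiated without the drug and triangles for cells differentiated with cabozantinib, 2 arrays each. Triangles lie right of both circles for the 12 genes from Bglap2 to Alpl, mix with them for Col1a1, and lie between squares and circles for Vdr, Msx1 and Msx2.

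The regulators of the lineage did not rise with the matrix genes. Of 15 tested osteoblast transcription factors, 0 were called higher and 5 lower, 4 fell with both scalings (26.7%), and the median change was -0.81. Vdr, the vitamin D receptor, read 0.49 and 0.61 in undifferentiated cells, -2.52 and -2.37 without the drug, and -1.22 and -0.94 with it. The groups did not overlap, and the level with the drug lay between the other 2. Vdr fell by 1.63 ± 0.33 (adjusted p = 0.0163), and it was higher with the drug than without by 1.36 (adjusted p = 0.0415, 0.0573 after quantile normalization). The homeobox genes Msx1 and Msx2, active in calvarial progenitors, fell by 1.40 and 1.16 (adjusted p = 0.0259 and 0.0462). Without single arrays Vdr, Msx1 and Msx2 were not called, at changes from -1.77 to -1.07. Sox11, a factor of mesenchymal progenitors, was at least 11.8-fold lower, at background on all 4 arrays of differentiated cells. Runx2 and Sp7, the factors that define the lineage, were dim, with 3 and 4 of the 6 arrays well above background, and their changes of -0.81 and -2.04 did not pass the test (adjusted p = 0.337 and 0.176).

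Signaling genes moved member by member. Of 13 IGF genes, 3 rose and 2 fell with both scalings (23.1% and 15.4%). Igf1, a growth factor for bone cells, had signals of 3.72 and 2.45 in undifferentiated cells, 6.84 and 7.46 without the drug and 6.63 and 7.10 with it, and rose by 3.78 ± 0.51 (13.7-fold, adjusted p = 0.00487). Pappa2, a protease that cleaves IGF binding proteins, rose by 3.58 ± 0.40 (12-fold, adjusted p = 0.00289). Its difference from cells without the drug was 1.47 at this probe and was not called (adjusted p = 0.0558). A dimmer probe of Pappa2 was called higher there with percentile scaling (3.02, adjusted p = 0.0231). The binding protein Igfbp2 read 1.57 and 1.70 in undifferentiated cells, 1.92 and 1.86 without the drug and 3.72 and 3.47 with it. The 4 arrays without the drug lay close together and the drug arrays above them. Igfbp2 rose by 1.96 ± 0.33 (adjusted p = 0.00941, or 1.83 and not called without cabozantinib replicate 1) and was higher than in cells without the drug by 1.70 (adjusted p = 0.0268, 0.0585 after quantile normalization). A dimmer probe of Igfbp2 read 0.78 against undifferentiated cells (adjusted p = 0.173) and 2.23 against cells without the drug (adjusted p = 0.0231). Igfbp3 was at least 4.37-fold lower than in undifferentiated cells.

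Of 24 Wnt genes, 4 rose and 1 fell with both scalings (16.7% and 4.17%), and all 4 that rose encode secreted antagonists of Wnt signaling. Sfrp2 rose by 3.69 ± 0.39 (12.9-fold, adjusted p = 0.00247), Sfrp4 by 3.81 ± 0.32 (adjusted p = 0.00124) and Frzb by 2.59 ± 0.35 (adjusted p = 0.00514), with Dkk1 as the fourth. Sfrp4 read -0.99 and -0.83 in undifferentiated cells, 4.78 and 4.91 without the drug and 2.86 and 2.95 with it, so that it was lower with the drug than without by 1.94 (adjusted p = 0.0231, 0.0513 after quantile normalization). The ligand Wnt4 fell by 2.68 ± 0.40. Of 29 genes of TGF-β and BMP signaling, 4 rose and 6 fell with both scalings (13.8% and 20.7%), with a median of -0.71. Those that fell included the activin subunits Inhba and Inhbb, by 3.79 and 2.83, the BMP antagonist Grem1, the receptor Bmpr1b and the transcriptional regulator Id3, and those that rose were Tgfb2, Tgfbr1, Bmp3 and Chrdl1. Grem1 and Bmpr1b were at background with the drug and were at least 6.69-fold and 10.6-fold lower. The BMP antagonist Chrdl1 rose by 4.08 ± 0.44 (16.9-fold, adjusted p = 0.00248).

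Genes of macrophages and of complement held the highest medians of the lists read with percentile scaling. After quantile normalization the medians were 2.39 for complement, 2.33 for adipocyte markers and 2.29 for macrophage markers. Of 16 tested macrophage markers, 8 rose with both scalings and 0 fell, with a median change of 2.18. The marker Adgre1 (F4/80) had signals of 2.23 and 2.51 in undifferentiated cells, 6.23 and 6.59 without the drug and 5.98 and 5.77 with it, and rose by 3.50 ± 0.35 (11.3-fold, adjusted p = 0.00189). The mannose receptor Mrc1 rose by 5.37 ± 0.41 (41.4-fold, adjusted p = 0.000846). The CSF1 receptor Csf1r rose by 2.66 at its brightest probe (2.37 and not called without cabozantinib replicate 2). Its other probes went the other way, with a dimmer probe at -1.20 that was not called (adjusted p = 0.117) and another that was called lower at -1.21. Summed over the list, the linear signal relative to the 75th percentile was 207 and 115 on the undifferentiated arrays, 689 and 973 without the drug, and 669 and 846 with it. At its brightest probe no macrophage marker was called between cells with and without the drug. The Csf1r probe at -1.21 was called lower with the drug in that test (-1.50, adjusted p = 0.0347), and the one at -1.20 was not called (-1.03, adjusted p = 0.228). Cd68 and Cd163 had no tested probe.

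Complement genes, many of them expressed by macrophages, rose in 13 of 17 tested cases and fell in 1, with a median of 2.25. C1qc, a chain of the first component, read -0.03 and -0.97 in undifferentiated cells, 6.36 and 7.01 without the drug and 5.87 and 6.39 with it, a rise of 6.63 ± 0.46 (99.4-fold, adjusted p = 0.000707). C3 rose by 2.26, or 2.13 and not called without cabozantinib replicate 2. C4b, whose probe may also bind a near-identical copy, rose by 4.50. Factor D (Cfd), which is also made by adipocytes, was at background in undifferentiated cells and at least 5.35-fold higher with the drug. Cfd read -0.42 and 0.45 without the drug and -3.88 and -3.43 with it, a difference of -3.67 between these groups (adjusted p = 0.0231, 0.0498 after quantile normalization). The gene that fell was Cd55, which protects cells from complement, by 2.41 ± 0.34 (adjusted p = 0.00569).

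Osteoclasts form from macrophage precursors. Of 13 tested osteoclast markers, 3 were called higher and 3 lower (23.1% each, against 6.77% and 17.4% of all genes). With both scalings 3 rose and 0 fell, and the median was -0.34 (0.23 after quantile normalization). Atp6v0d2, a proton pump subunit, rose by 4.86 ± 0.33 (29.0-fold, adjusted p = 0.000707), Acp5, the tartrate-resistant acid phosphatase, by 2.78 ± 0.45, and Dcstamp, a fusion receptor, by 2.13 (1.92 and not called without cabozantinib replicate 2). Ctsk, cathepsin K, read 5.62 and 4.96 against 6.45 and 6.76 and missed the threshold (adjusted p = 0.0503). Of 24 lysosomal genes, 3 rose with both scalings (12.5%) and 0 fell. Of 5 tested MHC class II genes, 2 rose and 0 fell.

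Neutrophil granule genes were lower in part. Of 10 tested, 5 fell with both scalings and 0 rose, with a median of -1.41. S100a9, a subunit of the calcium-binding protein calprotectin, read 2.90 and 1.70 in undifferentiated cells and was at background on all 4 arrays of differentiated cells, at least 219-fold lower with the drug. Its partner S100a8 fell by 2.53 ± 0.34 (5.77-fold, adjusted p = 0.00503), and Chil3 by 2.99 ± 0.40. The summed signal of the list was 15.7 and 8.8 in undifferentiated cells, 4.5 and 5.6 without the drug and 3.1 and 4.0 with it. The stefin genes Stfa1, Stfa3 and Cstdc5, cysteine protease inhibitors that share sequence so that their probes may bind each other's transcripts, were at least 117-fold, 45.7-fold and 120-fold lower.

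Of 22 cytokines and chemokines, 6 rose and 5 fell with both scalings. The chemokine Cxcl12, which holds hematopoietic cells in the marrow, rose by 3.12 ± 0.35 (8.68-fold, adjusted p = 0.00285), and Ccl8 and Ccl3 rose by 4.40 and 3.94. The inflammatory cytokine Il6 was at background with the drug and at least 21.9-fold lower, Cxcl14 fell by 2.73 ± 0.44, and the acute phase gene Saa3 by 4.52 ± 0.62 (22.9-fold, adjusted p = 0.00519). Ptgs2, the inducible prostaglandin synthase, was called lower at -4.06 with percentile scaling only (adjusted p = 0.0159, 0.057 after quantile normalization). Il34, a second ligand of the CSF1 receptor, read -0.43 and -0.99 in undifferentiated cells, -0.92 and -0.42 without the drug and 0.73 and 1.0 with it. It rose by 1.57 ± 0.38 (adjusted p = 0.0272), between 1.29 and 1.71 and not called without undifferentiated replicate 2 or either cabozantinib array. Of 21 interferon-stimulated genes, 8 rose with both scalings and 0 fell, with a median of 1.16, among them the antiviral gene Ifit3 by 2.66 ± 0.39 (adjusted p = 0.00643).

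Some markers of other mesenchymal and neural cells rose as well. Of 14 tested adipocyte markers, 7 rose and 1 fell with both scalings, with a median of 2.07. The summed signal was 21.3 and 14.2 in undifferentiated cells, 82.45 and 112.3 without the drug and 67.1 and 71.6 with it. Without the drug 8 were called higher and 0 lower, with a median of 2.20. Between cells with and without the drug 0 were called higher and 3 lower with percentile scaling, with a median of -0.66. The fatty acid transporter Cd36 and lipoprotein lipase (Lpl) rose by 5.02 and 4.36, and both are also expressed in macrophages. Adiponectin (Adipoq), which is made by adipocytes, was at background in undifferentiated cells and at least 4.21-fold higher with the drug. Fabp4 read 0.84 and 0.49 in undifferentiated cells, 4.51 and 5.58 without the drug and 3.0 and 2.98 with it, a rise of 2.33 ± 0.44 and a difference from cells without the drug of -2.05 (adjusted p = 0.0311, 0.0607 after quantile normalization). Plin1, which coats fat droplets, was at background on both cabozantinib arrays and was not called. Of 9 cholesterol efflux and LXR target genes, 3 rose and 0 fell with both scalings. Apoe, the apolipoprotein of macrophages and adipocytes, rose by 4.95 ± 0.38 (30.9-fold, adjusted p = 0.000846), and Abcg1, a cholesterol exporter, by 3.44.

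Of 15 chondrocyte markers, 5 rose and 0 fell, with a median of 1.05. Ucma, a Gla protein of cartilage and bone, read -1.51 and -2.51 in undifferentiated cells, 5.35 and 6.40 without the drug and 5.16 and 5.68 with it, a rise of 7.43 ± 0.51 (172-fold, adjusted p = 0.000707). Matn3, a cartilage matrix protein at background in undifferentiated cells, was at least 25.7-fold higher. Of 12 skeletal muscle markers, 4 rose and 1 fell with both scalings. With percentile scaling 3 were called lower, among them Myog, a transcription factor of the muscle lineage, at -1.19 (adjusted p = 0.0487 in limma). Those that rose were the myosin heavy chains Myh1, Myh2, Myh4 and Myh8, which share sequence so that their probes may bind each other's transcripts. Myh1 and Myh8, of mature and of perinatal muscle fibers, rose by 5.64 ± 0.53 and 6.57 ± 0.52 (adjusted p = 0.00168 and 0.00091). Myh8 was higher than in cells without the drug by 2.41 (adjusted p = 0.0317, 0.0824 after quantile normalization). Mylpf, a myosin light chain, was at background with the drug and at least 2.43-fold lower. Of 8 Schwann cell and neural markers, 3 rose and 1 fell with both scalings. Of their changes 4 were positive and 4 negative, with a median of -0.11 (0.29 after quantile normalization). Among those that rose, the myelin gene Mbp rose by 2.50 and the factor Sox10 by 2.25 (1.99 and not called without cabozantinib replicate 2).

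Among the remaining cell types, 1 of 11 endothelial markers rose and 2 fell with both scalings (9.09% and 18.2%). Of 7 lymphocyte markers 1 rose and 0 fell, and 0 of 3 erythroid markers were called. The endothelial gene that rose, Pecam1, is also carried by leukocytes, and its change of 1.13 was not called when any array was left out (from 1.04 to 1.22). The summed endothelial signal was 5.5 and 3.1 in undifferentiated cells, 2.46 and 3.43 without the drug and 2.1 and 2.6 with it, and Tek, Tie1 and Emcn had no tested probe. With percentile scaling only, 3 lymphocyte markers were called lower (42.9%, against 17.4% of all genes), among them the B cell gene Cd79a. Of the lymphocyte changes 1 was positive and 6 were negative, with a median of -1.27 (-0.74 after quantile normalization). The part of each of these cell types in the rises and falls of other genes was not tested.

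**Figure D3:**
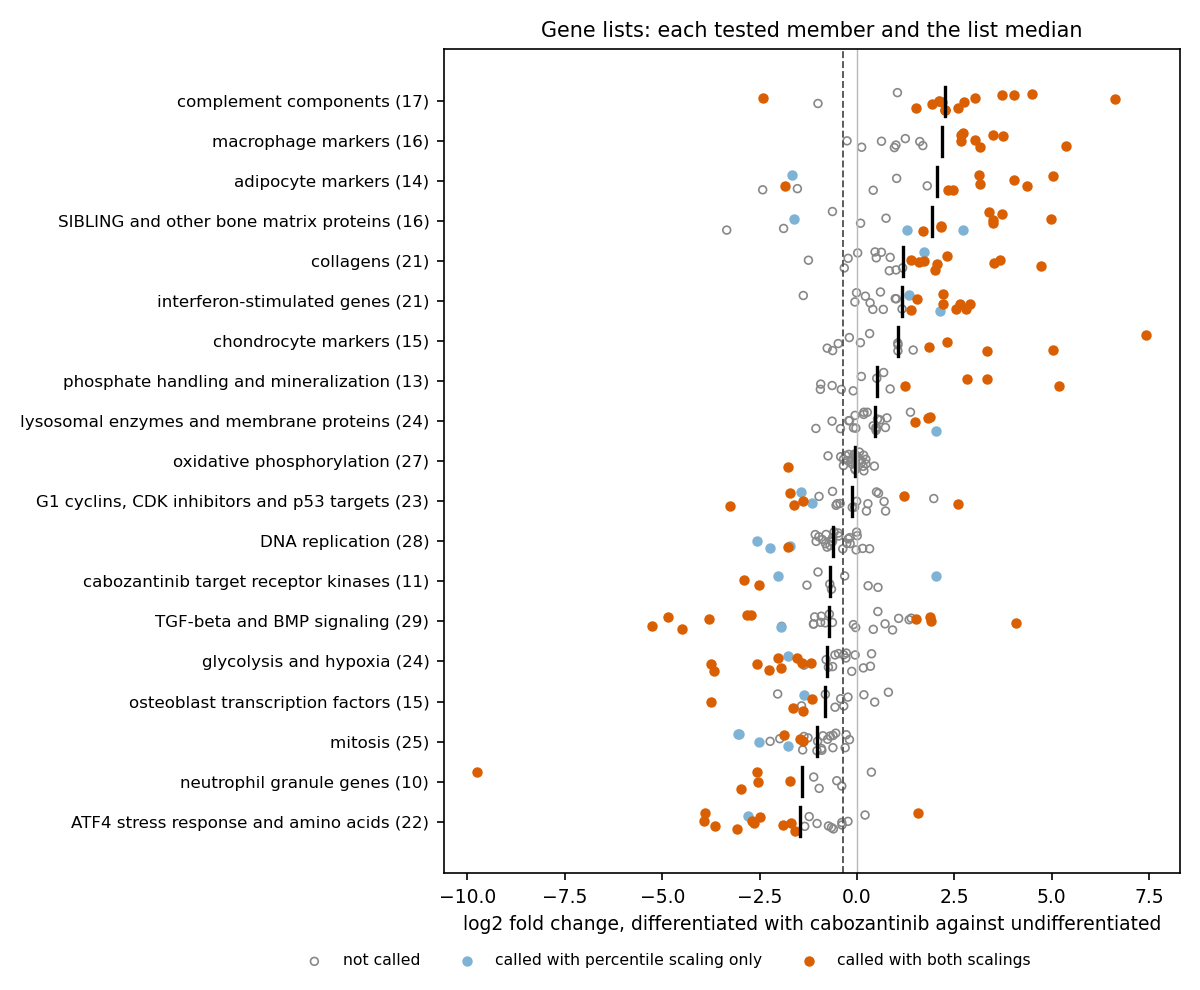
Log2 fold change of cells differentiated with cabozantinib against undifferentiated cells (x axis) for each tested member of 19 gene lists, with the number tested in brackets, the list median as a black bar, the median of all genes as a dashed line at -0.35 and 0 as a grey line. Open circles were not called, blue ones were called with percentile scaling only and orange ones with both scalings, and members at background in a group, such as S100a9 at the far left, are drawn at their fitted value. Complement and macrophage genes lie highest and the ATF4 list lowest, with medians of 2.25, 2.18 and -1.46.

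Of the lists read, the ATF4 stress response and amino acid genes had the lowest median. ATF4 is a transcription factor whose protein is made when amino acids are short or the endoplasmic reticulum is stressed, and its targets include enzymes and transporters that supply amino acids. Of 22 tested genes, 1 rose and 10 fell with both scalings, with a median of -1.46 (-1.51 after quantile normalization). Without the drug 0 of the list were called higher and 1 lower, with a median of -0.35. Between cells with and without the drug the median was -0.98, with 0 called higher and 5 lower. Of all genes 0.81% were called higher and 12% lower in this test. Of the 5 genes only Trib3 kept the call after quantile normalization. Trib3, a pseudokinase that holds back ATF4 signaling, read 5.54 and 4.38 in undifferentiated cells, 5.57 and 4.71 without the drug and 0.75 and 1.36 with it. The 4 arrays without the drug lay in 1 range and the drug arrays far below it. Trib3 fell by 3.91 ± 0.52 (15.0-fold, adjusted p = 0.00483), and it was lower than in cells without the drug by 4.08 (adjusted p = 0.0231, 0.0498 after quantile normalization).

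The enzymes of serine synthesis fell together. Phgdh, the first step, read 3.34 and 2.85 in undifferentiated cells, 2.12 and 1.50 without the drug and 0.26 and 0.52 with it, and fell by 2.71 ± 0.39 (6.53-fold, adjusted p = 0.00591). The next steps, Psat1 and Psph, fell by 1.69 and 1.58 (adjusted p = 0.0262 and 0.0191). A dimmer probe of Psat1 read -2.97 against undifferentiated cells (adjusted p = 0.00481). With percentile scaling that probe was called lower than in cells without the drug (-2.71, adjusted p = 0.0231), while the brightest was not called there (-1.03, adjusted p = 0.143). Psph was lower than in cells without the drug by 1.44 (adjusted p = 0.0386, 0.0939 after quantile normalization). The folate enzymes of mitochondria, which use serine, were also lower, Shmt2 by 2.50 ± 0.35 and Mthfd2 at least 8.25-fold. Asparagine synthetase (Asns) read 6.95 and 5.67 in undifferentiated cells, 6.22 and 5.86 without the drug and 4.20 and 4.64 with it. The groups without the drug overlapped, and both drug arrays lay below them. Asns fell by 1.89 ± 0.49 (3.71-fold, adjusted p = 0.0317). Slc7a3, a carrier of arginine and lysine, fell by 3.64 ± 0.64 and was lower than in cells without the drug by 2.88 (adjusted p = 0.0334, 0.117 after quantile normalization). Chac1, which breaks down glutathione, read 4.75 and 3.76 in undifferentiated cells and 1.43 and 1.80 with the drug, a fall of 2.64 ± 0.46 (adjusted p = 0.0132). It had no value on the arrays without the drug, where its spots were removed as outliers. Ddit3 (CHOP), a stress factor measured on 1 of the 2 cabozantinib arrays, fell by 3.08 ± 0.43. Atf3 rose by 1.55 ± 0.38, and Atf4 itself, which is controlled mainly in translation, read 7.23 and 5.89 against 6.07 and 6.59 and was not called (adjusted p = 0.784). Without single arrays Asns, Psat1, Psph and Atf3 were not called, Asns between -2.11 and -1.25, Psat1 between -1.86 and -1.32, Psph at -1.66 and -1.50, and Atf3 between 1.22 and 1.71.

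The promoters of Asns and Chac1 are shown because both genes fell and both hold TGATGNAA, the composite site of C/EBP and ATF factors, in the 250 bases before the start (RefSeq, GRCm38.p6, on the strand of the gene, the motif on either strand in capitals).
Asns, chr6:7693210-7693459, minus strand: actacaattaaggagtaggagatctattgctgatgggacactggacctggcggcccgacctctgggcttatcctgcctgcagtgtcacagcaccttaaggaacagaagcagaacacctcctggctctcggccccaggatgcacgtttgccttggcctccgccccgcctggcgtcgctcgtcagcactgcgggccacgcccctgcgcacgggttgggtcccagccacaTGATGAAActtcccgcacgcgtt
Chac1, chr2:119350992-119351241, plus strand: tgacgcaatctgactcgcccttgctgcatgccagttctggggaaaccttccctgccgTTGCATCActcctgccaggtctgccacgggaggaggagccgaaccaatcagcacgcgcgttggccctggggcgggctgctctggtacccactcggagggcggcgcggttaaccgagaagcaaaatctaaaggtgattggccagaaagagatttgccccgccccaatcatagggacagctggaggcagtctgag
The site lay 23 bases before the start of Asns and 193 bases before that of Chac1, where it is read on the opposite strand. It was held by 7 of the 21 genes of the list with a promoter in the table (33.3%) and by 3.91% of all genes. Besides Asns and Chac1 the holders were Atf3, which rose, Slc7a11, Nupr1 and Vldlr, which neither rose nor fell, and Pycr1, which was not tested. No other gene of the list that fell was among the holders. The share describes the list whether or not its members were called, and the match of letters is no sign of binding. The motif was chosen after the values had been seen.

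Glycolysis and hypoxia-responsive genes were lower too. Of 24 tested, 0 were called higher and 10 lower, 9 fell with both scalings, and the median was -0.76. Without the drug 1 was higher and 5 were lower. A first set of genes fell in both kinds of differentiated cells. Pfkl, a phosphofructokinase, fell by 3.67 ± 0.37 with the drug (adjusted p = 0.00202) and by 3.75 without it. Pkm, pyruvate kinase, fell by 2.25 and 2.48, and Tpi1 by 2.04 and 2.35. Between cells with and without the drug, 4 genes of the list were called lower with percentile scaling, where 12% of all genes were. None of the 4 kept the call after quantile normalization. The glucose transporter Slc2a1 read 5.54 and 5.08 in undifferentiated cells, 4.77 and 5.41 without the drug and 3.24 and 3.48 with it. Its fall of 1.95 ± 0.39 (3.85-fold, adjusted p = 0.0152) stood beside a difference of -1.73 from cells without the drug (adjusted p = 0.034, 0.056 after quantile normalization). Egln3, an oxygen sensor and target of HIF, read 0.25 and 0.27 in undifferentiated cells, 0.16 and -0.24 without the drug and -2.35 and -2.25 with it. It fell by 2.56 ± 0.34 (5.89-fold, adjusted p = 0.00472) and differed from cells without the drug by -2.26 (adjusted p = 0.0231, 0.0501 after quantile normalization). Hk2, a hexokinase, fell by 1.42 (adjusted p = 0.0362) and differed by -1.62 (adjusted p = 0.0393, 0.0582 after quantile normalization). Ankrd37, a HIF target, was not called against undifferentiated cells and differed by -2.15 from cells without the drug (adjusted p = 0.0231, 0.0514 after quantile normalization). The lactate exporter Slc16a3 fell by 3.74 ± 0.56 (13.3-fold, adjusted p = 0.00684). Without single arrays Slc2a1, Tpi1, Pkm and Hk2 were not called, at changes from -2.09 to -1.12. Of 27 subunits of oxidative phosphorylation, 0 rose and 1 fell, Uqcrc1 by 1.77 (between -1.81 and -1.49 and not called without undifferentiated replicate 1 or either cabozantinib array), with a median of -0.05.

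**Figure D4:**
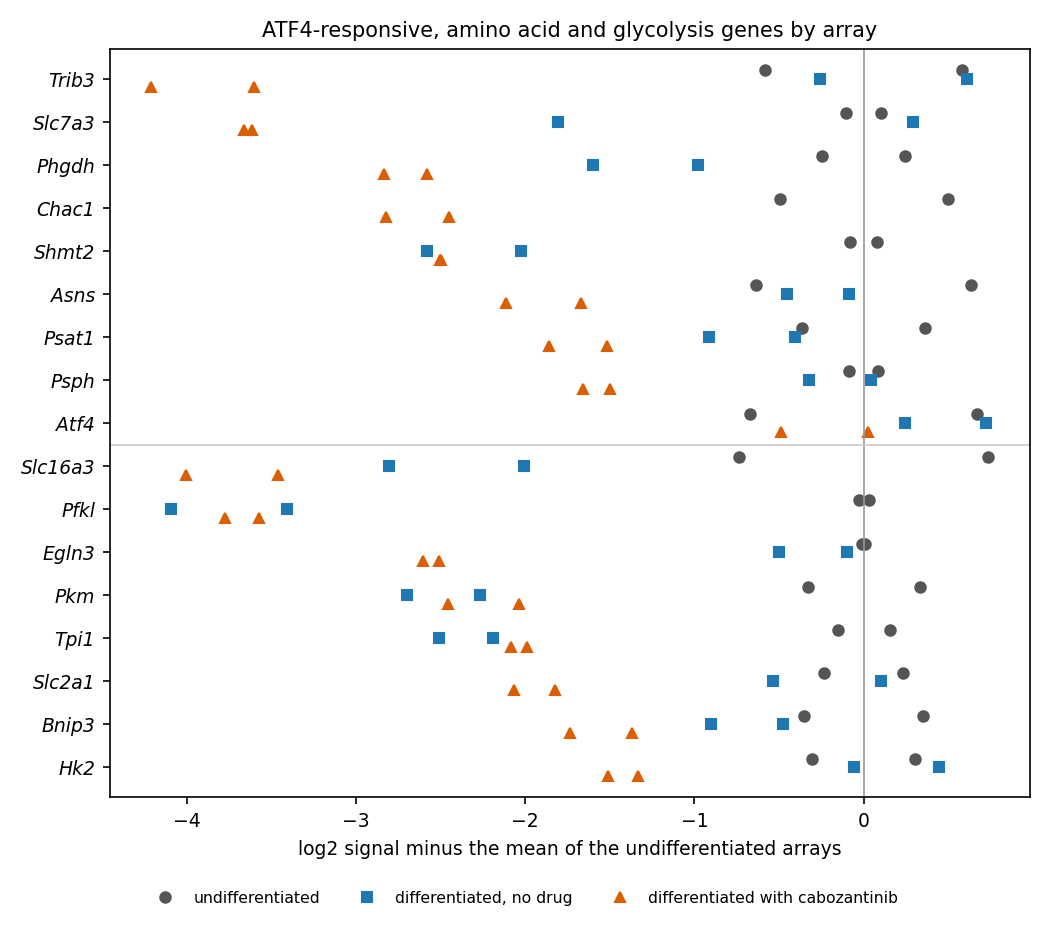
Log2 signal of each array minus the mean of the 2 undifferentiated arrays (x axis) for ATF4-responsive and amino acid genes (top) and glycolysis and hypoxia genes (bottom), with circles for undifferentiated cells, squares for cells differentiated without the drug and triangles for cells differentiated with cabozantinib, 2 arrays each and no squares for Chac1. Triangles lie left of both other groups for Trib3, Asns, Psat1, Psph, Slc2a1, Egln3 and Hk2, and among the squares for Shmt2 and Pfkl.

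Of 25 tested mitosis genes, 0 were called higher and 7 lower (28%, against 17.4% of all genes), 3 fell with both scalings (12%, against 6.18%), all 25 had negative changes and the median was -1.03. Without the drug 0 were higher and 9 lower. Ube2c, which marks mitotic proteins for destruction, read 0.42 and 0.66 in undifferentiated cells, -2.53 and -2.04 without the drug and -1.20 and -1.44 with it, and fell by 1.86 ± 0.36 (adjusted p = 0.0137). Cdk1, the kinase that starts mitosis, read 2.08 and 1.82, then 0.42 and 1.09, and with the drug 0.47 and 0.48, a fall of 1.47 ± 0.37 (adjusted p = 0.0295). A dimmer probe of Cdk1 read -2.85 against undifferentiated cells (adjusted p = 0.00425). With percentile scaling that probe was called lower with the drug than without (-1.76, adjusted p = 0.0296), while the brightest was not called there (-0.28, adjusted p = 0.716). The kinase Aurka fell by 1.39. Of 28 DNA replication genes, 4 were called lower (14.3%) and 1 fell with both scalings (3.57%), shares below those of all genes, with 0 that rose and a median of -0.63. The gene that fell was Rrm2, a subunit of ribonucleotide reductase, by 1.78. Without single arrays Ube2c, Cdk1, Aurka and Rrm2 were not called, at changes from -1.98 to -1.25.

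The promoters of Cdk1 and Ube2c are shown because both genes fell and both hold CCAAT boxes and the CHR element of mitotic genes (TTTGAA or TTCGAA), marked on either strand in capitals. In Cdk1 the capitals also mark an E2F site (TTTCGCGC).
Cdk1, chr10:69352913-69353162, minus strand: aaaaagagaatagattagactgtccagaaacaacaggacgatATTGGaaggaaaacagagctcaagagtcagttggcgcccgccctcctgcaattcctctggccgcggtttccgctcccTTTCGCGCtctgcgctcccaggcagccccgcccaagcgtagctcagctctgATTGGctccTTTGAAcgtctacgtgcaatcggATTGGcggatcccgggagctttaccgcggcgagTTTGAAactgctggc
Ube2c, chr2:164769679-164769928, plus strand: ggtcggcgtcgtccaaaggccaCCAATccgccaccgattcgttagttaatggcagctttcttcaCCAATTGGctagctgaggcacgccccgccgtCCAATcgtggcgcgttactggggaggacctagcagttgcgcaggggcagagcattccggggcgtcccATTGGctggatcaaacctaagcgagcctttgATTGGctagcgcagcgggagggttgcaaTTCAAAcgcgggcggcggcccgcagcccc
In these 250 bases (RefSeq, GRCm38.p6) the CHR elements lay 71 and 15 bases before the start of Cdk1 and 29 bases before that of Ube2c. A CCAAT box was held by 18 of 23 mitosis genes (78.3%) and 15 of 24 DNA replication genes (62.5%), against 37.5% of all. The CHR was held by 39.1% and 20.8% against 19.6%, and the E2F site, with TTTCCCGC also counted, by 4.35% and 29.2% against 1.33%. The shares describe the lists whether or not their members were called.

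Of 23 G1 cyclins, CDK inhibitors and p53 targets, 2 rose and 4 fell with both scalings (8.70% and 17.4%, against 6.35% and 6.18% of all genes). The 2 that rose were CDK inhibitors, Cdkn1c (p57) by 2.60 ± 0.38 (6.05-fold, adjusted p = 0.00649) and Cdkn1b (p27) by 1.21 (adjusted p = 0.0429). The cyclins Ccnd1, Ccnd2 and Ccne1 fell by 1.38, 1.63 and 1.73, although another probe of Ccne1 read 0.05 (adjusted p = 0.971), and the Trp53 probe was at least 2.48-fold lower. Ccnd1, a cyclin induced by growth factors, read 2.78 and 3.08 in undifferentiated cells, -0.37 and -0.22 without the drug and 1.81 and 1.30 with it. The drug arrays lay between the other groups, above cells without the drug by 1.85 (adjusted p = 0.0268, 0.0669 after quantile normalization). Without single arrays Ccnd1 (-1.63 to -1.12), Ccnd2 (-1.80 and -1.46), Ccne1 (-1.85 to -1.27) and Cdkn1b (1.04 to 1.38) were not called.

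Of 11 tested kinases that cabozantinib inhibits, 1 was called higher and 3 lower (27.3%, against 17.4% of all genes). With both scalings 0 rose and 2 fell (18.2%, against 6.18%), and the median was -0.70. Met read -3.30 and -3.56 in undifferentiated cells and -4.20 and -4.05 with the drug, a difference of -0.70 ± 0.34 that did not pass the test (adjusted p = 0.167). The VEGF receptor Kdr (VEGFR2) read 0.16 and -0.61 against -1.02 and -0.73 (adjusted p = 0.279). At these probes both signs turned when the median of each array was subtracted. A dimmer probe of Kdr read -0.04 against undifferentiated cells (adjusted p = 0.950). That probe was called lower with the drug than without (-1.93, adjusted p = 0.025), while the brightest was not called there (-0.73, adjusted p = 0.298). The receptors that fell were Ret, by 2.90 ± 0.36 (7.47-fold, adjusted p = 0.00397), and Flt4 (VEGFR3), at background with the drug and at least 1.66-fold lower. Of their 14 ligands, 3 rose and 1 fell with both scalings. Hgf, the ligand of MET, read -3.18 and -2.26 in undifferentiated cells, -0.72 and -0.65 without the drug and -0.41 and -0.51 with it, and rose by 2.25 ± 0.40 (4.77-fold, adjusted p = 0.011). Gas6, the ligand of AXL and MERTK, rose by 2.53 ± 0.48 and Angpt1 by 1.94 ± 0.34, and neither was called without cabozantinib replicate 2 (2.39 and 1.88), Angpt1 also without replicate 1 (1.99). Gdnf, the ligand of RET, fell by 2.51 ± 0.33 (5.69-fold, adjusted p = 0.00454). Of 13 ERK feedback and ETS target genes, which lie downstream of such receptors, 1 rose and 3 fell with both scalings. Fosl1 fell by 3.56 ± 0.36 (11.8-fold, adjusted p = 0.0021) and Ier3 by 2.82 ± 0.33, both also lower without the drug at -2.62 and -3.39. Dusp6, a phosphatase that turns off ERK, rose by 1.99 ± 0.44 (1.73 and not called without cabozantinib replicate 2). Spry4, another inhibitor of the pathway, read -2.25 and -1.61 in undifferentiated cells, -0.69 and -0.78 without the drug and -2.55 and -2.58 with it, so that it differed between cells with and without the drug (-1.83, adjusted p = 0.0279, 0.0743 after quantile normalization) and not from undifferentiated cells.

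Ranked by the change with cabozantinib among named genes measured on all 4 arrays with groups that did not overlap, the 12 highest rose between 5.64 and 7.43. They were the integrin Itgax (CD11c), Ucma, Gm525, C1qc, A530064D06Rik, Cd83, Wfdc17, Mia, Blnk, Cybrd1, Marco and Myh1. Itgax read -3.83 and -3.82 in undifferentiated cells, 3.80 and 3.84 without the drug and 3.49 and 3.72 with it, a rise of 7.43 ± 0.33 (172-fold, adjusted p = 0.000388). Itgax, the scavenger receptor Marco, Cd83 and the signaling adaptor Blnk are carried by myeloid or antigen-presenting cells. None of these 12 genes was called between cells with and without the drug. Among genes at background on both undifferentiated arrays, the highest bounds were those of the macrophage protein Cd5l, at least 2312-fold higher, of the lectin Clec10a (141-fold), and of Gpr17, Vxn, Sult1a1 and Slco2b1 (between 50.9-fold and 97.0-fold).

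The 12 lowest genes of the same ranking included Car6, Gdf5, Itgb7, Saa3, Prg4, Mgarp, U90926, Hmga2, Lce1g, Lce1i and Ptgs2, with changes between -5.63 and -4.06, of which Ptgs2 was not called after quantile normalization. Car6, a secreted carbonic anhydrase, read 2.62 and 1.76 in undifferentiated cells, 3.05 and 1.0 without the drug and -3.68 and -3.19 with it. The 4 arrays without the drug overlapped, and the drug arrays lay below all of them. Car6 fell by 5.63 ± 0.68 (49.4-fold, adjusted p = 0.00356) and differed from cells without the drug by -5.46 (adjusted p = 0.0231, 0.0532 after quantile normalization). Prg4, lubricin, the joint lubricant, read 4.99 and 4.57, then 2.00 and 1.76, and with the drug 0.21 and 0.37, a fall of 4.49 ± 0.35 (22.5-fold, adjusted p = 0.000846). Hmga2, a chromatin protein of growing embryonic cells, fell by 4.29 ± 0.33, and Gdf5, a growth factor of joints, by 5.07 ± 0.58 at its brighter probe and by 0.81 at a dimmer one. Lce1g and Lce1i, skin barrier genes, share sequence, and their probes may bind both. Among genes at background on both cabozantinib arrays, the lowest beside S100a9 and the stefins were Dynap, at least 163-fold lower, and 1700012B09Rik (35.9-fold).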

How the data were processed

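Total RNA of 6 samples was labeled with Cy3 and hybridized to whole-genome mouse oligonucleotide arrays by the authors. Per the file headers, the deposited intensities are linear signals that Feature Extraction 11.0.1.1 had background-subtracted and detrended, with no scaling between arrays. The authors' deposited log2 values cover 30439 probes, have medians from 7.504 to 7.506 on the arrays, and follow the log2 scanner signal with correlations from 0.998 to 0.999, but their normalization is not given in the sources used here. The labels and array methods give day 30, while the results text of the paper names day 24.

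Control and outlier spots were removed, the log2 signals of a probe's spots were averaged, and each array's 75th percentile was subtracted. Outlier removal left 77 probes without a value on some array. Probes were named through RefSeq accessions (69.1% of probes, 20659 genes). A probe was tested where 2 or more of the 6 arrays were well above background (27239 probes, 23086 genes, 16137 of them named), and a gene was counted at its brightest tested probe. The 3 groups were fitted together with limma 3.58.1 in R 4.3.3 (lmFit, eBayes, 3 residual and 4.31 prior degrees of freedom), with Benjamini-Hochberg adjustment over all probes and calls at an adjusted p under 0.05. No replicate block was used, since the labels do not say that a number marks a shared culture and the array methods name no test. The paper's statistics name a paired test in general, so that the block and the methods' t-test, paired and unpaired, were alternatives. Same-numbered arrays deviated with correlations of -0.53 (undifferentiated and cabozantinib), -0.51 (undifferentiated and differentiated) and 0.26 (differentiated and cabozantinib), and the numbers were not taken to pair the arrays. Where a probe was not well above background on either array of a group, the difference is given as "at least" the fold of the brighter group's mean over the mean of the lowest signals called well above background on the dim arrays, or the probe's own signal where higher. The slide was inferred from the scan times in the headers.

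Gene lists were written by hand, and the members, lists and motifs were chosen with earlier results of these data known. Named genes were list members, the 12 highest and 12 lowest changes measured on all 4 arrays with groups apart, and the 6 highest and 6 lowest bounds. Some genes the rule names are not reported here. Genes outside this rule are said to have been chosen after their values were seen. Promoters are the 250 bases before each transcript start in a RefSeq table, without genes of chromosome 18. The functions were tested on simulated data. The number of arrays limits the precision. Other software was matplotlib 3.10.9, pandas 2.3.3, Python 3.11.15 and the R package data.table (version 1.17.8). The alternatives, 19 planned and 2 added after the data had been seen, were other scalings, background corrections, filters, probe rules, tests and arrays left out. The normexp correction (offset 50) used the median spot and background signals.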

Additional observations from a re-analysis of the deposited data

Results flagged for a closer look

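The results below differed between cells differentiated with and without cabozantinib in the test of that difference itself, in limma at an adjusted p under 0.05 with percentile scaling, and are given as the log2 level with the drug minus that without it. Over all genes 0.81% were called higher and 12% lower in this test. After quantile normalization 12 of the genes below kept the call: Trib3, Itga5, Cfd, Dlk1, Lrrc15, Kcnk1, Rasgrp1, Nanos1, Pcsk2, Sparcl1, Aqp5 and Mctp2. Sox11 was called higher with the drug with both scalings, but it was not well above background in either group and its difference is not given. Other probes were not called in this test, at 0.40 for Nanos1, -1.69 for Dlk1, -0.44 for Psph, -0.68 for Prg4 and -1.07 for Rorb.

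Among genes of bone and signaling, the difference was 1.50 for Ibsp, 1.36 for Vdr, 1.47 for Nell1, 1.70 for Igfbp2, 1.55 for Itga5 and 1.53 for Il34. It was -3.65 for Ahsg, -1.57 for Timp3, -1.94 for Sfrp4, -1.59 for Prg4 and -3.32 for Dlk1. Among genes of metabolism and growth it was -4.08 for Trib3, -2.88 for Slc7a3, -1.80 for Ddit3, -1.44 for Psph, -2.26 for Egln3, -1.73 for Slc2a1, -1.62 for Hk2, -2.15 for Ankrd37, -1.83 for Spry4 and -1.25 for Hmga2, and 1.85 for Ccnd1. Mthfd2 was at least 3.55-fold lower with the drug and Flt4 at least 1.62-fold lower, both at background on the cabozantinib arrays.

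Among markers of other cells it was -3.67 for Cfd, -1.61 for Cd55, -2.05 for Fabp4, -2.05 for Matn3 and 2.41 for Myh8. Mylpf and Cd79a were at least 3.61-fold and 1.82-fold lower. Of the remaining genes it was -5.46 for Car6, -2.77 for Itgb7, -1.58 for Mgarp, -1.69 for Slco2b1, -1.73 for Rorb, -2.36 for Nanos1, -3.51 for Pcsk2, -2.53 for Sparcl1 and -2.86 for Mctp2. It was 2.30 for Lrrc15, 2.91 for Kcnk1, 2.92 for Rasgrp1 and 2.41 for Aqp5, and Dynap was at least 2.38-fold lower.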

How the results depend on the processing

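The 5571 genes called between cabozantinib and undifferentiated arrays became 3418 with quantile normalization, 798 with normexp background correction, 3061 with the authors' values, 3128 with no filter on dim probes, 2973 with probes well above background on all 6 arrays and 3092 (1081 higher, 2011 lower) with the replicate block. With undifferentiated numbers exchanged in the block they were 10303, and with quantile normalization of the 4 arrays compared 2396, both chosen after seeing the data. The methods' t-test gave 1 unpaired and 0 paired after adjustment, with 5286 and 1787 genes at an unadjusted p under 0.05. Leaving out each array gave between 1853 (without cabozantinib replicate 2) and 6722 genes (without undifferentiated replicate 2), with 2035 without cabozantinib replicate 1 and 3662 without undifferentiated replicate 1. The 2948 genes called between cells with and without the drug became 113 with quantile normalization, 616 with the replicate block and 4800 with only the 4 arrays compared. The replicate numbers share no known culture, and under the block 32 of the 193 named genes lost the call. The cause of these shifts was not tested.

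Of the named genes, quantile normalization ended the call for 9, median subtraction for 26, normexp for 71, no filter for 28, and leaving out cabozantinib replicate 1 or 2 for 50 and 56. With the median subtracted these list medians turned positive: collagen processing (0.34), DNA replication (0.083), G1 cyclins, CDK inhibitors and p53 targets (0.59), target kinases (0.011), ERK feedback (0.30), IGF (0.26), Wnt (0.30) and endothelial markers (0.054). With each array left out collagen processing ranged from -0.61 to 0.23 and the G1 list from -0.50 to 0.0001, both highest without undifferentiated replicate 1, and with normexp the G1 list to 0.0016. With probes well above background on all 6 arrays the skeletal muscle median was -0.071 and the endothelial one 0.17. Uncalled genes also turned. Col1a1 was -0.016 with quantile normalization, also of the 4 arrays alone, and with the authors' values, -0.066 with the percentile over probes well above background on all arrays, -0.0069 with normexp, and from -0.73 (without undifferentiated replicate 2) to 0.77 with each array left out. Runx2 was 0.062 with quantile normalization, also of the 4 arrays alone, and 0.063 with the authors' values. Atf4 was 0.48 with the median subtracted, and from -0.90 to 0.44 (without undifferentiated replicate 1) with each array left out. Met (0.011), Kdr (0.054) and Spry4 (0.0695) turned with the median subtracted.

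Probes near background limit the falls, and a bound depends on the dimmest signal the scanner software accepts. With 2 arrays a group, differences under about 2-fold did not pass the test.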

Other observations

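The genes of this section, beside Itga5, Dlk1, Nell1 and Rorb, which the study names, were chosen after their values had been seen, among genes called with both scalings between cells with and without the drug. Of the genes with a symbol that rose against undifferentiated cells, 9 were also higher than in cells without the drug, 4 of them measured on all 6 arrays. Lrrc15, a membrane protein of activated mesenchymal cells, read 1.77 and 1.61 in undifferentiated cells, 0.44 and 0.77 without the drug and 2.69 and 3.11 with it. The potassium channel Kcnk1 read -3.41 and -3.33, then -4.26 and -3.80, and with the drug -1.20 and -1.04. Rasgrp1, an activator of RAS, read -4.23 and -3.68, then -5.18 and -4.52, and with the drug -2.04 and -1.82. In these 3 genes the drug arrays were the highest of the 6, by differences of 2.30, 2.91 and 2.92 from cells without the drug (adjusted p = 0.0231 in limma for each). The rise of Lrrc15 over undifferentiated cells lost its call without any array in turn (1.0 to 1.42), and that of Rasgrp1 without either cabozantinib array (2.13 and 1.92). Nell1, a secreted protein of bone formation, showed the same order, with -1.42 and -1.25, -1.57 and -1.55, and -0.07 and -0.10 with the drug, but was not called after quantile normalization (adjusted p = 0.0582).

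In 4 genes with a symbol the level with the drug lay above undifferentiated cells and below cells without the drug. Pcsk2, a prohormone convertase, read -3.02 and -3.53 in undifferentiated cells, 4.06 and 4.68 without the drug and 0.68 and 1.03 with it. Sparcl1, a matrix protein related to osteonectin, read 0.53 and 0.06, then 6.0 and 6.41, and with the drug 3.54 and 3.81. Both rose over undifferentiated cells, by 4.13 and 3.38. Dlk1, an inhibitor of fat and bone cell differentiation, read 0.86 and 0.03, then 2.91 and 2.53, and with the drug -0.76 and -0.45. The drug arrays were the lowest for Dlk1, at a difference of -3.32 from cells without the drug (adjusted p = 0.0231, 0.0498 after quantile normalization). Mctp2 read -2.15 and -2.38, then -0.92 and -0.89, and with the drug -3.73 and -3.80, called higher without the drug (1.36) and lower with it (-1.50, or from -1.54 to -1.38 and not called without undifferentiated replicate 1 or either cabozantinib array). Among 10 genes with a symbol that fell and were above cells without the drug, the integrin Itga5 read -0.73 and -0.87, then -4.10 and -4.14, and with the drug -2.53 and -2.60. The water channel Aqp5 read 0.57 and 0.44, then -5.94 and -5.00, and with the drug -3.21 and -2.91. Of 22 genes with a symbol below both other groups, 3 were measured on all 6 arrays, Trib3, Mctp2 and Nanos1. A second probe of Nanos1 read 0.40 between cells with and without the drug (adjusted p = 0.715) and was not called against undifferentiated cells (adjusted p = 0.0901). Rorb, a nuclear receptor, read -2.40 and -2.49, then -2.62 and -2.72, and with the drug -4.39 and -4.40, and was not called after quantile normalization for the difference with and without the drug (adjusted p = 0.0733).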
